A study of Saccharomyces cerevisiae with 27 samples.

Results

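The 46 genes described here encode the budding yeast machinery that copies chromosomal DNA. They were chosen by name from a list of replication factors, with earlier results of these data known. Each was measured by 1 probe set among the 5434 named genes of the arrays. By role they comprise the origin recognition complex (6 genes), helicase loading (8), helicase activation (9), DNA polymerase alpha with its primase (4), polymerase epsilon (4), polymerase delta (3), the sliding clamp and its loader (6), lagging-strand maturation (2) and fork protection (4). Total RNA of haploid W303 yeast was hybridised to 27 Affymetrix arrays in 2 experiments. The groups were scc2-4 cells with 1 break made by the HO endonuclease (7 arrays), scc2-4 cells without it (7 arrays), wild-type cells with the break (6 arrays) and wild-type cells without it (7 arrays). In scc2-4 cells a temperature-sensitive allele of SCC2, which encodes a subunit of the cohesin loader, is inactivated by heat. All groups shared growth in 2% raffinose, arrest in G2/M, the temperature shift, galactose 30 min later and harvest 90 min after that. Galactose switches on HO in every group, so a group without a break is read here as a strain without the cut site, and the break cannot be told apart from any other difference between such strains. The labels name the replicates of each group as biological and give no number of clones.

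Replication starts at origins marked by the origin recognition complex, where Cdc6 and Cdt1 (encoded by TAH11) load the ring-shaped MCM helicase in G1. In S phase Cdc45 and the GINS complex turn this ring into a moving helicase. Polymerase alpha then lays primers, polymerases epsilon and delta extend them on the clamp PCNA, and Okazaki fragments are trimmed and ligated. In cycling yeast the mRNAs of many polymerase and clamp genes peak in late G1 under the transcription factor MBF, while those of CDC6 and the MCM genes rise earlier, around the end of mitosis, under Mcm1-dependent control.

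All values below are log2 expression, and a change is a difference of such values with its standard error (SE). A gene passed when its limma p-value, adjusted over all 5434 genes, was under 0.05. Mean levels of the 46 genes over all arrays lay between 7.45 and 11.05, and 10 of them were dimmer than the 20th percentile of all genes. The pooled SD between arrays of a group was 0.0408 to 0.145 with a median of 0.0688, against 0.082 for the median gene. The arrays formed 3 sets with almost identical distributions of values, namely all of experiment 1, the scc2-4 arrays of experiment 2 and the wild-type arrays of experiment 2. Genotype and array set cannot be told apart in experiment 2, so genotypes are compared within experiment 1 (3 arrays a group), and break effects are means of the effects of both experiments. Within each set the arrays also fell into 2 subsets along 1 axis that held 60.2% to 71.0% of the deviations from the group means. In experiment 1 these subsets were uneven for the break, with 1 break and 2 no-break arrays of each genotype in one and the reverse in the other. Wild type of experiment 2 was uneven too, with 1 break and 2 no-break arrays in one subset and 2 of each in the other. For scc2-4 of experiment 2 each subset held 2 of each. SCC2 mRNA itself was lower in scc2-4 cells (−0.35 without and −0.49 with a break), but the allele acts on the protein, so this does not check the labels. HO and GAL1, which galactose induces, passed in neither break comparison. Each array held RNA of a whole culture, so fewer cells in a phase and less RNA per cell cannot be told apart.

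In wild-type cells with a break, some replication genes rose and others fell. Of the 4 polymerase alpha-primase genes 3 rose (POL12, POL1 and PRI2), as did both genes of lagging-strand maturation, the DNA ligase gene CDC9 and the flap nuclease gene RAD27. Fewer members rose in other roles, with DPB2 among 4 polymerase epsilon genes, POL31 among 3 polymerase delta genes and the clamp gene POL30 among 6 clamp and clamp loader genes. CDC45, which activates the helicase, and MRC1, which couples helicase and polymerase at the fork, rose as well. Of the 8 helicase loading genes 5 fell, namely CDC6 and 4 of the 6 MCM subunits, and so did ORC2 of the origin recognition complex. The changes were small, from 1.08-fold to 1.22-fold. Of the 46 genes 10 rose and 6 fell (21.7% and 13.0%), against 8.34% higher and 6.22% lower among all genes (14.6% in either direction). The median change was 0.03 for the 46 genes and −0.01 for all genes.

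**Figure D1:**
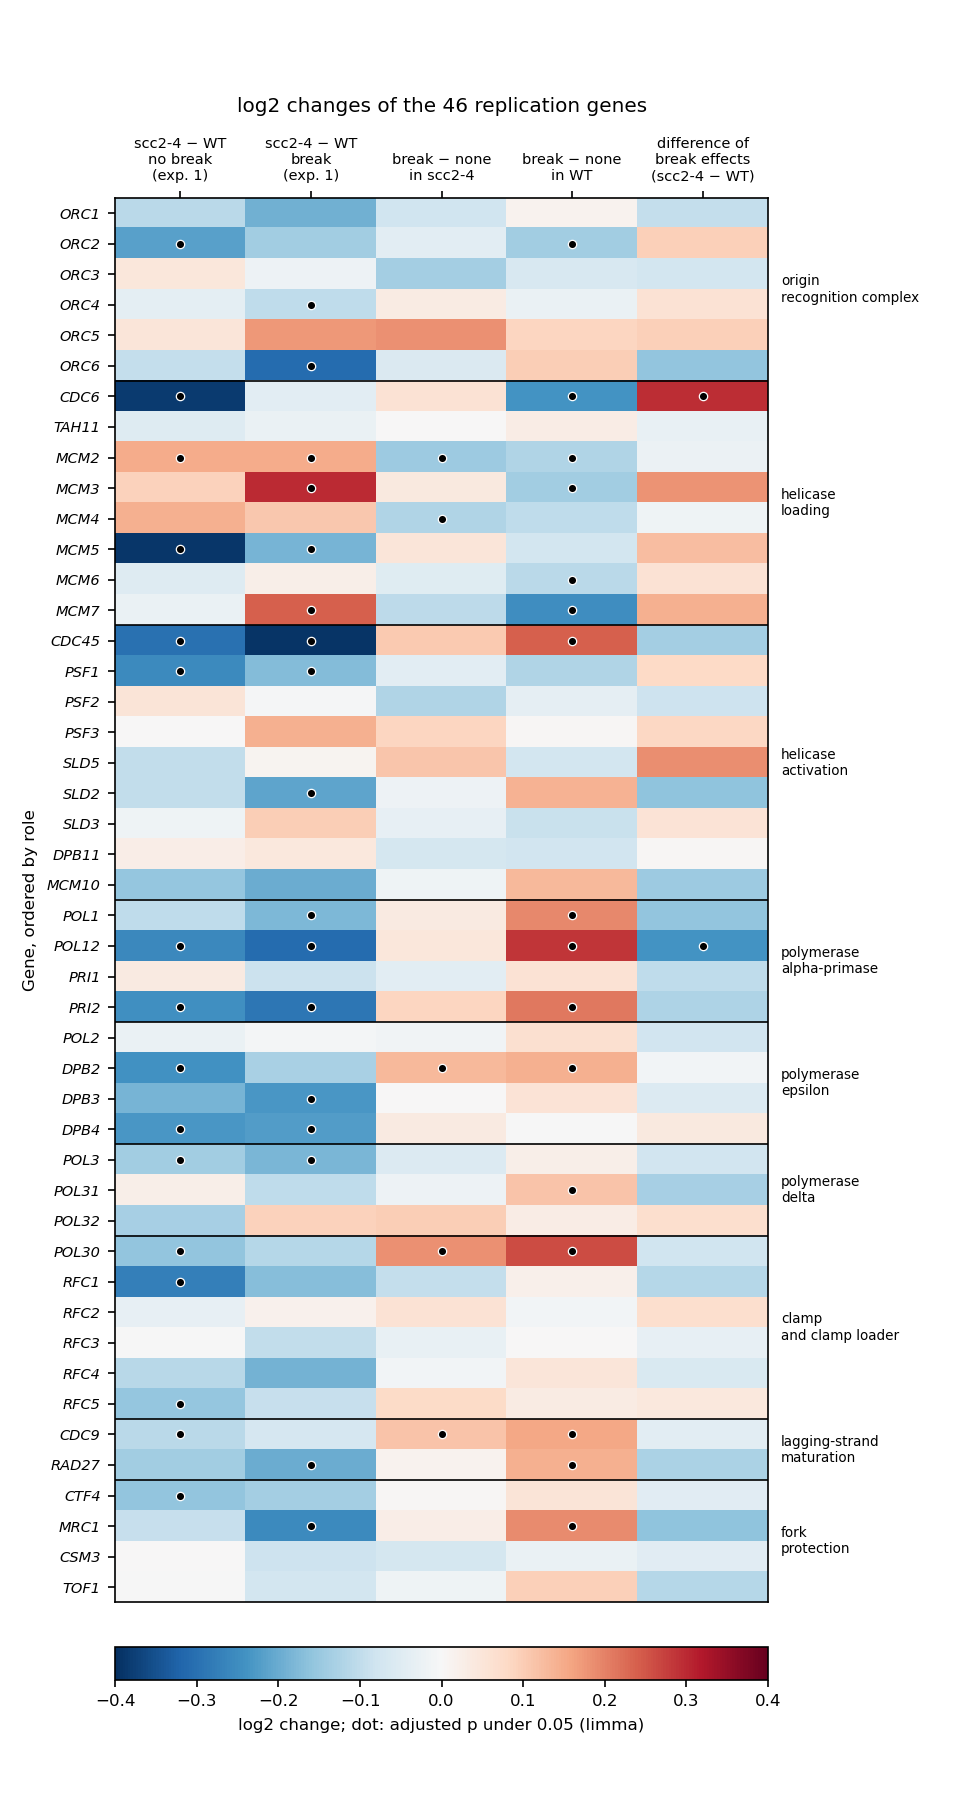
Log2 change of each of the 46 replication genes (rows, by role) in 5 comparisons (columns). Blue is lower and red is higher in the group named first, and a dot marks adjusted p under 0.05 (limma, all 5434 genes). Under a break in wild type the helicase loading genes other than TAH11 are blue and the polymerase alpha-primase genes are red, and most marked cells of the genotype columns are blue.

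POL12 encodes the regulatory B subunit of polymerase alpha-primase, the only polymerase that starts new strands. In experiment 1 it stood at 9.33, 9.36 and 9.38 on wild-type arrays with a break, against 9.15, 9.15 and 9.29 without. In experiment 2 it stood at 8.99, 8.98 and 9.03 with a break, against 8.45, 8.42, 8.76 and 8.72 without. The break arrays were above the no-break arrays in both experiments with no overlap, although the no-break arrays of experiment 2 fell into a lower and a higher pair. The rise was 0.28 ± 0.05 (SE), or 1.22-fold (adjusted p = 0.000159). Experiment 1 gave 0.16 and experiment 2 gave 0.41.

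PRI2, the large primase subunit, gave the tightest values of this group. In experiment 1 it measured 10.99, 10.97 and 10.99 with a break and 10.89, 10.85 and 10.80 without. In experiment 2 it measured 10.86, 10.98 and 10.86 with a break and 10.59, 10.55, 10.68 and 10.65 without. Again no break array overlapped a no-break array, and the rise was 0.21 ± 0.03 (adjusted p = 2.93e-05). POL1, the catalytic subunit, rose by 0.19 ± 0.03 (adjusted p = 0.000351), with 0.16 and 0.22 in the 2 experiments. PRI1, the catalytic primase subunit, had a change of 0.06 and did not pass, so 3 of the 4 subunits rose.

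POL30 encodes PCNA, the ring that holds polymerases on DNA and is also used in repair. It stood at 11.07, 11.07 and 11.13 with a break against 10.84, 10.81 and 10.95 without in experiment 1, and at 11.23, 11.09 and 11.01 against 10.75, 10.87, 10.87 and 10.75 in experiment 2. Both experiments separated fully, and the rise was 0.26 ± 0.03 or 1.20-fold (adjusted p = 1.81e-05). None of the 5 clamp loader genes RFC1 to RFC5 passed, with changes between −0.01 and 0.05. RFC5 lies next to POL30 with no gene between them in the gene table, and its change was 0.03.

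Among polymerase epsilon and delta genes only DPB2 (0.14 ± 0.04, adjusted p = 0.00959) and POL31 (0.11 ± 0.04, adjusted p = 0.0357) passed, while the catalytic genes POL2 and POL3 had changes of 0.06 and 0.02. The POL31 call was lost in 8 of the 27 fits that each left out 1 array, where its change lay between 0.09 and 0.15. Both genes of lagging-strand maturation rose. CDC9, which seals nicks, rose by 0.16 ± 0.03 (adjusted p = 0.000549) and RAD27, which removes primer flaps, by 0.14 ± 0.04 (adjusted p = 0.0126).

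CDC45 was the only helicase activation gene of 9 that passed. It measured 8.84, 9.05 and 9.14 with a break against 8.68, 8.66 and 8.84 without in experiment 1, and 8.35, 8.29 and 8.14 against 8.08, 8.06, 8.07 and 8.03 in experiment 2. The lowest break array of experiment 1 met the highest no-break array at 8.84, and experiment 2 separated. The rise was 0.24 ± 0.05 (adjusted p = 0.00125). The 4 GINS genes PSF1, PSF2, PSF3 and SLD5 had changes of −0.12, −0.04, 0.00 and −0.07, none of which passed.

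MRC1 rose by 0.19 ± 0.05 (adjusted p = 0.0118). Its arrays stood at 9.90, 9.79 and 9.75 with a break against 9.69, 9.64 and 9.58 without in experiment 1, and at 9.73, 9.72 and 9.68 against 9.43, 9.36, 9.63 and 9.62 in experiment 2. They did not overlap in either experiment. Its fork protection partners TOF1 and CSM3 (0.10 and −0.03) and the polymerase alpha anchor CTF4 (0.05) did not pass.

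**Figure D2:**
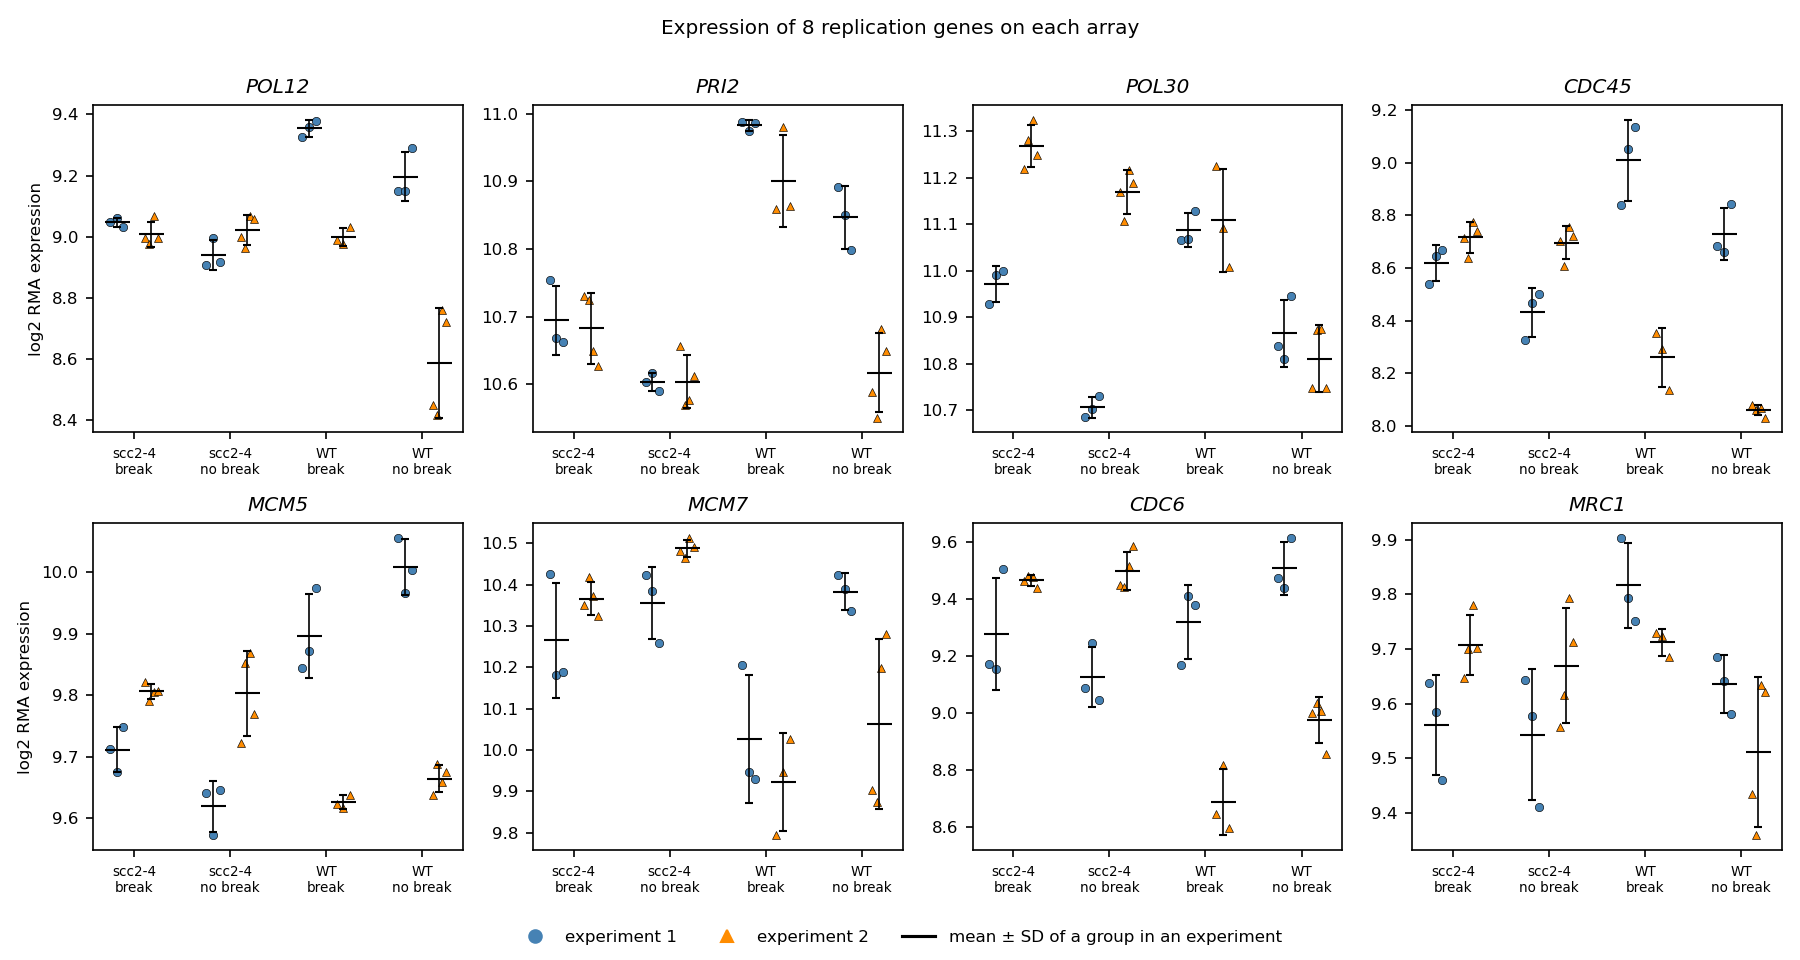
Log2 RMA expression of 8 replication genes on each of the 27 arrays, by group, with circles for experiment 1 (3 arrays a group), triangles for experiment 2 (3 or 4 arrays a group) and bars for the mean ± SD of a group in an experiment. POL12, PRI2 and POL30 are higher with a break than without one in wild type in both experiments, and MCM7 and CDC6 are lower on average.

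On the loading side, CDC6 encodes the ATPase that brings the MCM ring to an origin. It measured 9.17, 9.41 and 9.38 with a break against 9.47, 9.44 and 9.62 without in experiment 1, and 8.65, 8.82 and 8.60 against 9.00, 9.04, 9.01 and 8.86 in experiment 2. All break arrays lay below all no-break arrays of the same experiment, and the fall was −0.24 ± 0.06 (adjusted p = 0.006). MCM7 had the largest fall, −0.25 ± 0.06 (adjusted p = 0.00902), with 10.21, 9.95 and 9.93 against 10.42, 10.39 and 10.34 in experiment 1 and 9.79, 9.95 and 10.03 against 9.90, 9.87, 10.20 and 10.28 in experiment 2. Its break arrays were lower in experiment 1 and overlapped the no-break arrays in experiment 2. Its change was −0.36 in experiment 1 and −0.14 in experiment 2.

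MCM3 fell by 0.14 with arrays at 10.54, 10.42 and 10.45 against 10.65, 10.60 and 10.71 in experiment 1 and at 10.42, 10.44 and 10.41 against 10.59, 10.50, 10.54 and 10.47 in experiment 2 (SE 0.04, adjusted p = 0.0127). Those arrays did not overlap. MCM2 (−0.12) and MCM6 (−0.11) also passed, but each lost its call in 8 of 27 fits that left out 1 array, with changes of −0.15 to −0.10 and −0.13 to −0.08. MCM4 (−0.10) and MCM5 (−0.07) did not pass. The 6 subunits had a change below 0 in both experiments, and their median was −0.11. TAH11, the Cdt1 gene, had a change of 0.03.

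ORC2 fell by 0.14 (adjusted p = 0.0286), a mean of −0.22 in experiment 1 and −0.06 in experiment 2. It lost its call in 6 of 27 fits that left out 1 array, at −0.16 to −0.12 over all fits. The other 5 origin recognition genes had changes of −0.06 to 0.10 and did not pass. Across the 46 genes, 34 had a break effect of the same sign in both experiments, against 57.9% of all genes, and 7 (CDC6, MCM3, POL1, POL12, PRI2, POL30 and MRC1) had arrays that did not overlap in either experiment, against 5.63% of all genes. The break effect differed between experiments for 0 of the 46 genes by the limma test of that difference (7 at an unadjusted p under 0.05), against 0.0920% of all genes. Read singly within the same limma fit, experiment 1 gave 2 rises and 0 falls (8 and 8 at an unadjusted p under 0.05), against 0.662% and 0.515% of all genes. Experiment 2 gave 10 rises and 2 falls, against 9.16% and 8.47%. With arrays of a group that lay close together averaged (18 arrays left), 4 genes rose and 1 fell, against 148 and 94 of all 5434 genes. With the array subset as a block 13 rose and 10 fell, all 6 MCM genes among them, against 18.6% and 21.7% of all genes.

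Marker genes of cell cycle phase were also read in wild type. Of 7 G2/M markers 6 fell with the break, led by the mitotic cyclin genes CLB2 (−0.35) and CLB1 (−0.31) and by BUD4 (−0.27). The mean level of the G2/M markers lay between 9.849 and 9.993 with a break and between 10.108 and 10.168 without in experiment 1, and between 9.431 and 9.546 against 9.658 to 9.78 in experiment 2. Of 8 M/G1 markers 5 fell, led by the daughter-cell genes DSE1 (−0.56) and DSE2 (−0.34) and by EGT2 (−0.38). Their mean level was 9.687 to 9.706 against 9.854 to 9.927 in experiment 1 and 9.21 to 9.259 against 9.531 to 9.663 in experiment 2. Of 7 G1 and S phase markers, RNR1 (0.65) and CDC21 (0.46), which serve nucleotide synthesis, rose, while the G1 cyclin gene CLN1 fell (−0.14). The mean level of these 7 was 8.192 to 8.302 with a break against 8.061 to 8.182 without in experiment 1 and 7.979 to 8.083 against 7.882 to 7.991 in experiment 2. Of the 7, however, 3 had a change above 0 and 4 below, with a median of −0.0019, so the set did not rise as a whole. No defining marker was at 0 on any array, but for log2 array values this does not show that each was detected. CLB6 and PCL1 went down to 4.55 and 5.44, against array medians of 9.757 or more. The part of cell cycle position in the replication gene changes was not tested.

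In scc2-4 cells few replication genes responded to the break. POL30 rose by 0.18 ± 0.03 (adjusted p = 0.00186), DPB2 by 0.13 ± 0.04 (adjusted p = 0.0235) and CDC9 by 0.11 ± 0.03 (adjusted p = 0.0121). MCM2 fell by 0.14 ± 0.04 (adjusted p = 0.0215) and MCM4 by 0.12 ± 0.04 (adjusted p = 0.0495). That made 3 of 46 genes higher and 2 lower (6.52% and 4.35%), against 4.07% and 3.40% of all genes (7.47% in either direction), a share near the background. POL30, DPB2 and CDC9 also rose in wild type, being 3 of the 3 rises here and 3 of the 10 there, and MCM2 also fell there, being 1 of 2 falls here and 1 of 6 there. Calls shared by the 2 genotypes were not counted over all genes, so whether this overlap is unusual was not tested.

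POL30 stood at 10.93, 10.99 and 11.00 with a break against 10.69, 10.70 and 10.73 without in experiment 1, and at 11.22, 11.28, 11.32 and 11.25 against 11.17, 11.11, 11.22 and 11.19 in experiment 2. The arrays were clearly apart in experiment 1 and lay edge to edge in experiment 2. CDC9 stood at 9.87, 9.81 and 9.83 against 9.69, 9.69 and 9.74 in experiment 1 and at 9.93, 9.96, 9.97 and 9.94 against 9.77, 9.88, 9.85 and 9.89 in experiment 2, again without overlap. These 2 genes were the only ones of the 46 whose arrays did not overlap in either experiment, against 4.07% of all genes, and 30 of 46 had the same sign in both experiments, against 50.8% of all genes.

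DPB2 measured 8.96, 8.98 and 9.08 with a break against 8.76, 8.78 and 8.89 without in experiment 1, and 9.00, 8.98, 9.05 and 9.00 against 8.86, 8.90, 8.98 and 9.02 in experiment 2, where the groups overlapped. MCM2 measured 9.01, 8.87 and 8.79 against 9.00, 9.00 and 9.05 in experiment 1, and 9.44, 9.45, 9.47 and 9.54 against 9.68, 9.51, 9.70 and 9.66 in experiment 2. Its break arrays were lower on average in both experiments and overlapped the others in each. The DPB2 call was lost without no-break array 1 (0.12), 2 (0.12) or break array 3 (0.11) of experiment 1 or no-break array 1 of experiment 2 (0.12), the MCM2 call without break array 2 (−0.14) or 3 (−0.12) of experiment 1, and the MCM4 call in 19 of 27 such fits. When close arrays were averaged 0 of the 46 passed (7 at an unadjusted p under 0.05, limma), with 21 higher and 13 lower among all 5434 genes.

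Several genes that rose in wild type did not pass in scc2-4 cells. The log2 difference with a break was 0.05 for POL12, 0.09 for PRI2, 0.04 for POL1, 0.10 for CDC45 and 0.03 for MRC1, and none passed. For CDC6, which fell in wild type, it was 0.06. G2/M markers fell in 2 of 7 cases (BUD4 −0.17, SWI5 −0.16), and 0 of 8 M/G1 markers passed (3 lower at an unadjusted p under 0.05, limma), while RNR1 (0.40) and CDC21 (0.27) rose. The mean level of the M/G1 markers was 9.8 to 9.89 with a break against 9.796 to 9.856 without in experiment 1 and 9.887 to 10.008 against 10.019 to 10.161 in experiment 2.

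**Figure D3:**
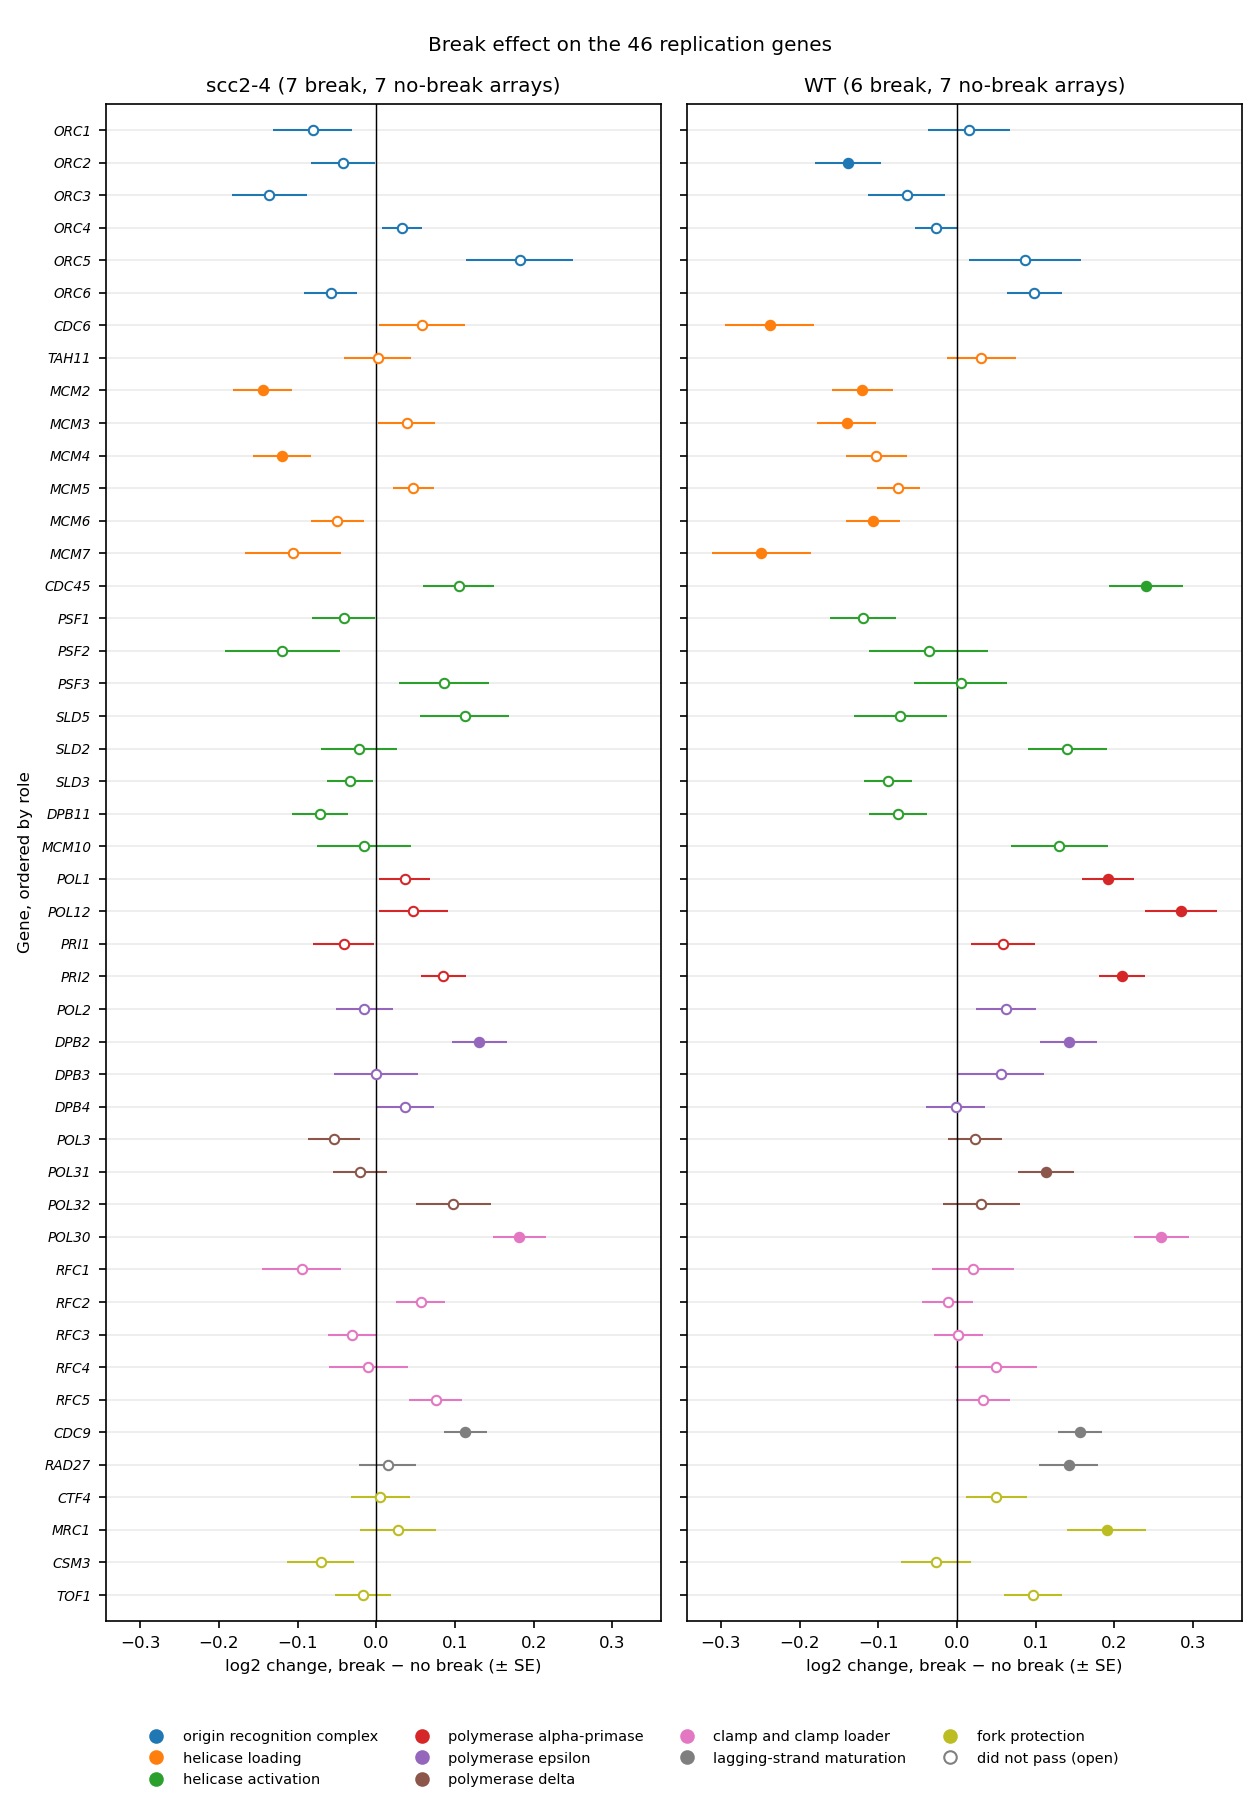
Log2 change with a break (± SE, limma) of each of the 46 replication genes in scc2-4 cells (left, 7 break and 7 no-break arrays) and wild-type cells (right, 6 break and 7 no-break arrays), coloured by role. Filled points passed (adjusted p under 0.05), which were 5 genes in scc2-4 and 16 in wild type.

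A difference in the break effect between the genotypes was itself tested, and 2 of the 46 genes passed (4.35%), against 3.92% of all genes. CDC6 had a break effect 0.30 ± 0.08 higher in scc2-4 than in wild type (adjusted p = 0.0351). In scc2-4 cells it measured 9.17, 9.15 and 9.51 with a break against 9.09, 9.25 and 9.05 without in experiment 1, and 9.47, 9.48, 9.48 and 9.44 against 9.45, 9.44, 9.52 and 9.59 in experiment 2. These groups overlapped in both experiments, unlike those of wild type. The difference was 0.34 in experiment 1 and 0.25 in experiment 2.

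POL12 had a break effect −0.24 ± 0.06 lower in scc2-4 (adjusted p = 0.0351). Its scc2-4 arrays stood at 9.05, 9.06 and 9.03 with a break against 8.91, 8.99 and 8.92 without in experiment 1, and at 9.00, 8.97, 9.07 and 8.99 against 9.00, 8.96, 9.07 and 9.06 in experiment 2. They were separate in experiment 1 and mixed in experiment 2, and the difference between genotypes was −0.05 in experiment 1 and −0.43 in experiment 2. Next in size was SLD5, a GINS subunit, at 0.18 ± 0.08 (adjusted p = 0.217). Leaving out 1 array ended the CDC6 call in 13 of 27 fits (values 0.24 to 0.33) and the POL12 call in 15 (−0.27 to −0.21), and neither passed when close arrays were averaged.

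Without a break, scc2-4 cells of experiment 1 had less mRNA than wild-type cells for at least 1 gene of each role. Lower were CDC6 and MCM5 of helicase loading, CDC45 and PSF1 of helicase activation, POL12 and PRI2, the polymerase epsilon genes DPB2 and DPB4, the catalytic polymerase delta gene POL3, the clamp gene POL30, the loader genes RFC1 and RFC5, CDC9, ORC2 and CTF4. MCM2 was the only gene that was higher. In all 15 of 46 genes were lower and 1 higher (32.6% and 2.17%), against 16.7% and 17.8% of all genes (34.5% in either direction). The share past the threshold was close to that of all genes, and 15 of its 16 members were lower. The median change was −0.10 against 0.00 for all genes, and 35 of the 46 values were below 0.

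MCM5, a helicase subunit, had the largest difference. It measured 9.64, 9.57 and 9.65 in scc2-4 cells against 10.06, 9.97 and 10.00 in wild-type cells, well apart, for a difference of −0.39 ± 0.04 or 1.31-fold (adjusted p = 2.07e-07). CDC6 measured 9.09, 9.25 and 9.05 against 9.47, 9.44 and 9.62, also without overlap, for −0.38 ± 0.08 (adjusted p = 0.00107). The other MCM genes varied in sign: MCM2 was 0.15 higher (adjusted p = 0.0463), while MCM3, MCM4, MCM6 and MCM7 did not pass, with differences of 0.09, 0.14, −0.05 and −0.03.

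CDC45 measured 8.32, 8.47 and 8.50 in scc2-4 cells and 8.68, 8.66 and 8.84 in wild-type cells, a difference of −0.30 ± 0.07 (adjusted p = 0.0018). PSF1, a GINS subunit, measured 9.81, 9.94 and 9.87 against 10.11, 10.07 and 10.21, a difference of −0.26 ± 0.06 (adjusted p = 0.00238). Neither gene's groups overlapped. The other GINS genes PSF2, PSF3 and SLD5 had differences of 0.05, 0.00 and −0.10 that did not pass.

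POL12 measured 8.91, 8.99 and 8.92 in scc2-4 cells against 9.15, 9.15 and 9.29 in wild type, a difference of −0.26 ± 0.07 (adjusted p = 0.00443). PRI2 measured 10.60, 10.62 and 10.59 against 10.89, 10.85 and 10.80, a difference of −0.24 ± 0.04 (adjusted p = 0.00013). Both sets of arrays were separate. DPB2, an essential subunit of polymerase epsilon, measured 8.76, 8.78 and 8.89 against 9.05, 8.97 and 9.13, a difference of −0.24 ± 0.05 (adjusted p = 0.00113). RFC1, the large subunit of the clamp loader, measured 9.43, 9.35 and 9.46 against 9.69, 9.62 and 9.75, a difference of −0.27 ± 0.08 (adjusted p = 0.00712). These groups too did not overlap. Over the whole list this held for 21 of the 46 genes in this comparison, a share near the 46.4% of all genes. The genes named here were picked for large differences in the same values, so their lack of overlap adds no separate support.

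The remaining calls were smaller. ORC2 was −0.22 ± 0.06 and DPB4 −0.23 ± 0.06 lower (adjusted p = 0.00842 and 0.00235), and POL30, CTF4, RFC5, POL3 and CDC9 were lower by −0.16, −0.16, −0.15, −0.14 and −0.11. Of these, POL30 lost its call without wild-type array 3 (−0.12) or scc2-4 array 1 (−0.15), RFC5 without wild-type array 1 (−0.14) or scc2-4 array 1 or 2 (−0.15 each), POL3 without wild-type array 3 (−0.09) or scc2-4 array 2 (−0.14) or 3 (−0.13), and CTF4 without wild-type array 2 (−0.15) or 3 (−0.14) or scc2-4 array 2 (−0.16) or 3 (−0.14). The CDC9 and MCM2 calls were lost in 18 and 17 of 27 fits that left out 1 array. With close arrays averaged 8 genes were lower and 0 higher, against 485 and 540 of all 5434 genes. With the replicate number as a block 17 were lower and 2 higher, against 1097 and 1158 of all genes.

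The phase markers differed here too. CLB2 (−0.41), CDC5 (−0.22) and CDC20 (−0.15) were lower among 7 G2/M markers, while CLB5 (−0.29), CDC21 (−0.29) and RNR1 (−0.27) were lower and CLN1 (0.27) was higher among 7 G1 and S phase markers. Of 8 M/G1 markers, DSE1 (−0.30), DSE2 (−0.30) and SIC1 (−0.14) were lower and PCL9 (0.24) was higher. The mean level of the G2/M markers was 9.957 to 10.101 in scc2-4 cells against 10.108 to 10.168 in wild-type cells, that of the G1 and S phase markers 7.925 to 8.018 against 8.061 to 8.182, and that of the M/G1 markers 9.796 to 9.856 against 9.854 to 9.927. Their part in the genotype difference was not tested.

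With a break, scc2-4 cells of experiment 1 had lower levels than wild type of 3 of the 4 polymerase alpha-primase genes, 2 of 4 polymerase epsilon genes, 1 of 3 polymerase delta genes and 3 of 9 helicase activation genes, while 3 of 6 MCM genes were higher. The other 6 helicase activation genes did not pass, and the median over all 9 was −0.0055. CDC45, POL12, PRI2, POL1, ORC6, ORC4, MRC1, DPB3, DPB4, SLD2, RAD27, MCM5, POL3 and PSF1 were lower, and MCM2, MCM3 and MCM7 were higher. These were 14 and 3 of 46 genes (30.4% and 6.52%), against 17.0% lower and 19.2% higher among all genes (36.3% in either direction). The median was −0.10 against 0.01 for all genes. CDC45, DPB4, MCM5, POL12, POL3, PRI2 and PSF1 were lower in both states of the break, being 7 of the 15 lower genes without it and 7 of the 14 with it. How many of all genes were lower in both states was not counted, so whether this overlap is unusual was not tested.

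CDC45 measured 8.54, 8.65 and 8.67 in scc2-4 cells against 8.84, 9.05 and 9.14 in wild-type cells, the largest difference at −0.39 ± 0.07 or 1.31-fold (adjusted p = 0.000129). POL12 measured 9.05, 9.06 and 9.03 against 9.33, 9.36 and 9.38, for −0.31 ± 0.07 (adjusted p = 0.000937). PRI2 measured 10.75, 10.67 and 10.66 against 10.99, 10.97 and 10.99, for −0.29 ± 0.04 (adjusted p = 1.87e-05). None of these groups overlapped, but the genes were picked for large differences in the same values. Over the whole list 24 of the 46 genes did not overlap, against 41.7% of all genes. POL1 was −0.18 lower (adjusted p = 0.00579), so again 3 of the 4 alpha-primase genes passed, with PRI1 at −0.09.

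ORC6, the smallest origin recognition subunit, measured 8.20, 8.23 and 8.11 against 8.48, 8.49 and 8.49, for −0.31 ± 0.05 (adjusted p = 6.73e-05). It was among the dimmest genes of the list. The fork gene MRC1 measured 9.64, 9.58 and 9.46 against 9.90, 9.79 and 9.75, for −0.26 ± 0.07 (adjusted p = 0.00862). DPB3, a histone-fold subunit of polymerase epsilon, was lower by −0.23 ± 0.08 (adjusted p = 0.0271). All 3 differences were downward, but the MRC1 call was lost without scc2-4 array 3 (−0.21), and the DPB3 call without wild-type array 1 (−0.15) or scc2-4 array 3 (−0.20).

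MCM3 was the clearest of the higher genes, with 10.88, 10.67 and 10.76 in scc2-4 cells against 10.54, 10.42 and 10.45 in wild-type cells, a difference of 0.30 ± 0.05 (adjusted p = 0.000197). MCM7 measured 10.43, 10.18 and 10.19 against 10.21, 9.95 and 9.93, for 0.24 ± 0.09 (adjusted p = 0.0463). MCM3 arrays did not overlap, whereas 2 of the 3 scc2-4 arrays for MCM7 lay below the highest wild-type array. Between same-numbered arrays, which the labels do not state to be pairs, MCM7 was higher in scc2-4 by 0.22, 0.23 and 0.26. MCM5 went the other way at −0.18 ± 0.04 (adjusted p = 0.000939). The calls of MCM7, MCM2 and ORC4 were lost in 16, 17 and 10 of 27 fits that left out 1 array. That of PSF1 was lost without wild-type array 2 or 3 (−0.15 each) or scc2-4 array 1 (−0.13), and that of SLD2 without wild-type array 1 (−0.17) or scc2-4 array 2 (−0.20) or 3 (−0.17). With close arrays averaged 5 genes were lower and 1 higher, against 473 and 518 of all 5434 genes.

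Among the markers with a break, PCL9 (0.47), ASH1 (0.29), EGT2 (0.25) and CLN3 (0.23) of the 8 M/G1 genes were higher in scc2-4, and BUD4 (0.24) of the 7 G2/M genes. CDC21 (−0.39), RNR1 (−0.32) and CLB5 (−0.31) were lower and CLN1 (0.43) was higher. The mean level of the M/G1 markers was 9.8 to 9.89 in scc2-4 cells against 9.687 to 9.706 in wild-type cells, that of the G2/M markers 9.889 to 10.038 against 9.849 to 9.993, and that of the G1 and S phase markers 8.164 to 8.259 against 8.192 to 8.302. Over the mean of both break states, a comparison added after the data were seen, 25 of the 46 genes were lower and 3 higher (54.3% and 6.52%), against 24.1% and 25.7% of all genes.

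In experiment 2 the same genotype difference looked different, and there it cannot be told apart from the array set. Without a break 36 of the 46 genes were higher and 3 lower in scc2-4, against 60.6% and 23.3% of all genes, and with a break 32 were higher and 4 lower, against 58.6% and 23.4%. The median was 0.36 without a break and 0.23 with one, beside 0.24 and 0.23 for all genes. The GINS genes PSF3 and PSF2 and the origin gene ORC5 stood out at 1.31, 1.10 and 1.03 without a break, while their experiment 1 differences were 0.00, 0.05 and 0.05. PSF3 measured 9.34, 9.27, 9.37 and 9.34 in scc2-4 cells of experiment 2 against 7.96, 7.92, 8.09 and 8.13 in wild-type cells, and 8.59, 8.69 and 8.86 against 8.58, 8.66 and 8.90 in experiment 1. The groups were far apart in one experiment and mixed in the other.

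DPB11 was among the 3 genes lower in experiment 2, at −0.29 without a break and −0.30 with one. Of the 46 genes 15 had the same sign in both experiments without a break and 19 with one, against 55.0% and 60.7% of all genes. The experiment difference passed for 40 and 38 of the 46, against 75.8% and 72.3% of all genes. With each array centred on its median, which moved the all-gene median of experiment 2 to −0.01 without a break and −0.03 with one, experiment 2 gave 22 higher and 13 lower without a break and 17 and 15 with one. Of all genes 38.2% were then higher and 41.2% lower without a break, and 36.5% and 41.9% with one. In experiment 1 the same centring gave 0 higher and 16 lower without a break and 1 and 20 with one, where the arrays already shared almost the same median. The shares of all genes there were 15.5% higher and 19.4% lower without a break, and 18.4% and 18.1% with one.

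**Figure D4:**
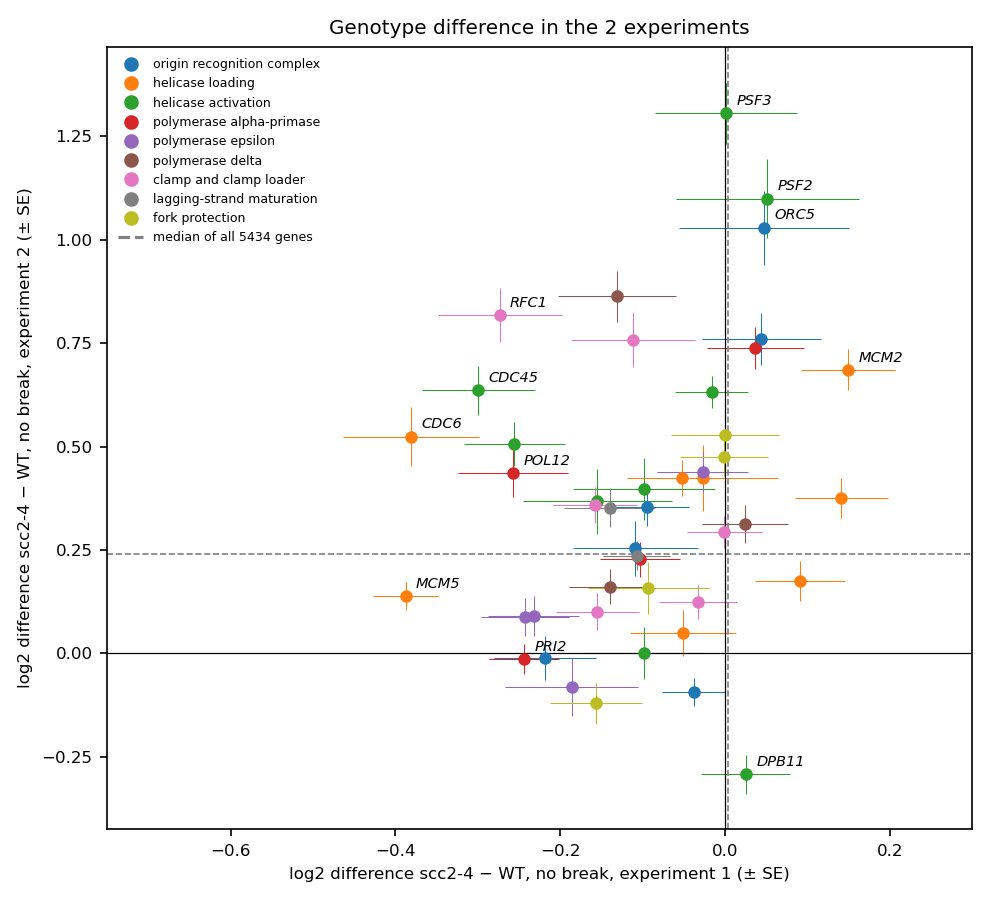
Genotype difference (scc2-4 minus wild type, no break, log2 ± SE) of each of the 46 replication genes in experiment 1 (horizontal) and experiment 2 (vertical), coloured by role, with dashed lines at the median of all 5434 genes. PSF3, PSF2 and ORC5 lie above 1.0 in experiment 2 and near 0 in experiment 1, and most genes left of 0 in experiment 1 lie above 0 in experiment 2.

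Another 19 replication genes, outside the 46, were read for comparison. The 3 genes of the single-strand binding protein RPA rose with a break in both genotypes: RFA1 by 0.14 in scc2-4 and 0.31 in wild type, RFA2 by 0.18 and 0.30, and RFA3 by 0.10 and 0.15. In wild type the helicase gene PIF1 (0.10) and RIF1 (0.13), which restrains origin firing, rose too, and 0 of the 19 fell (2 lower at an unadjusted p under 0.05, limma). That made 5 of the 19 higher in wild type, against 8.34% higher and 6.22% lower among all genes. In scc2-4 cells 3 of the 19 were higher and 0 lower, against 4.07% and 3.40%. Between genotypes, RFA1 was lower in scc2-4 in experiment 1 by −0.52 without and −0.56 with a break, a larger difference than for any of the 46 in that experiment. In experiment 1, 5 of the 19 were lower and 2 higher without a break and 7 lower and 1 higher with one. The shares of all genes were 16.7% lower and 17.8% higher without a break, and 17.0% and 19.2% with one. The break effect of RIF1 (−0.25) and PIF1 (−0.17) was lower in scc2-4 than in wild type (adjusted p = 0.00859 and 0.0177). These were 2 of the 19, against 3.92% of all genes in either direction.

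Regulators of the G1/S and M/G1 genes were read as well. Of 6 G1/S regulators, NRM1, a corepressor of MBF targets (0.22), and STB1 (0.15) rose with a break in wild type, against 8.34% of all genes. By limma 0 passed with a break in scc2-4 (2 at an unadjusted p under 0.05) or between genotypes of experiment 1 (0 unadjusted). In experiment 2, where genotype and array set cannot be told apart, 2 were higher and 3 lower without a break. With a break 2 were higher and 4 lower there. The shares of all genes were 60.6% and 23.3% without a break, and 58.6% and 23.4% with one. Of 3 M/G1 regulators, YHP1, a repressor of the M/G1 promoters, was higher in scc2-4 cells of experiment 1 (0.36 without and 0.24 with a break). MCM1, their activator, was lower there (−0.15 and −0.18). Past the threshold in these comparisons were 34.5% of all genes without a break and 36.3% with one. The break itself gave 0 M/G1 regulators past the threshold in either genotype, also at an unadjusted p under 0.05 (limma). The pair POL2 and ORC5, adjacent in the gene table, differed in experiment 2 by 0.44 and 1.03 between genotypes without a break and had changes of 0.06 and 0.09 with a break in wild type.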

How the data were processed

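The authors deposited log2 expression values, which the submitters' processing notes credit to RMA and R 2.9.2. That method corrects background, quantile-normalizes the arrays run together and summarises each probe set. Which arrays entered each run was not given in the sources used here, and the centring of the columns is unknown. Column medians were 10.19 to 10.22 in experiment 1, 9.757 to 9.79 for wild type and 10.01 to 10.04 for scc2-4 in experiment 2. Sorted values differed by a mean of 0.00818 to 0.0302 within these 3 sets and by 0.147 to 0.425 between them.

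Of 5684 probe sets, 5468 had 1 gene symbol, 0 several and 216 none, by a probe table updated through the R64 gene table. The brightest probe set was kept for 34 genes with several. The log2 values of 27 arrays were fitted with limma 3.58.1 in R 4.3.3 (lmFit, eBayes) with a mean for each group in each experiment (8 means), and p-values were adjusted by Benjamini-Hochberg over 5434 genes. The fit was tested on simulated arrays with known changes and independent noise. These held no experiments, array sets or subsets, so the test does not check p-values under the shared deviations of the real arrays. An additive experiment term was used as an alternative, since genotype effects differed between experiments.

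The 46 genes and the comparison lists were chosen with earlier results of these data known. The genes described in full are, for each comparison, up to 8 with the largest change past the threshold, or the 3 largest where fewer than 3 passed. One G2/M marker is not reported here. Same-numbered arrays of experiment 1 deviated together across genotypes (r 0.55, 0.33 and 0.65 without a break, 0.77, 0.45 and 0.35 with one). Without a break, however, wild-type array 2 deviated more with scc2-4 array 1 (r 0.64) than with scc2-4 array 2. These arrays all lay in the same array subset, so the numbers are not shown to pair samples, within or across break states. The number of arrays limits the precision, and p-values measure only the spread between the labelled replicates. Alternatives covered scaling, array weights, probe sets, dim genes, each experiment alone, blocks and each array left out.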

Additional observations from a re-analysis of the deposited data

Results flagged for a closer look

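Of 184 sets of 4 to 10 arrays tested over the 46 genes, 4 held an array far from the others. Each set pooled both experiments, whose levels differ, so the usual chance rate of about 1 in 20 need not hold here. MCM3 stood at 10.54 on array 1 of experiment 1 of wild type with a break, against 10.41 to 10.45 on the others. DPB2 stood at 8.93 on array 2 of experiment 2 of the same group, against 9.10 to 9.16. RFC3 stood at 10.12 on array 2 of experiment 2 of scc2-4 without a break, against 10.22 to 10.29. CSM3 stood at 8.99 on array 2 of experiment 1 of scc2-4 with a break, against 8.65 to 8.75.

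A break response that differed between scc2-4 and wild type by the limma test of the difference was found for CDC6 (0.30) and POL12 (−0.24) of the 46 genes, for PIF1 (−0.17) and RIF1 (−0.25) of the other replication genes, and for the M/G1 markers EGT2 (0.34) and DSE1 (0.39). For the 46 genes that was 4.35%, near the 3.92% of all genes. The CDC6 and POL12 calls were lost in 13 and 15 of 27 fits that left out 1 array. With close arrays averaged, with array set as a term or in experiment 1 alone, 0 of the 46 passed.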

How the results depend on the processing

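Counts below are of the 46 genes, higher then lower. With the number of a replicate as a replicate block, the counts were 2 and 17 (scc2-4 against wild type, no break), 4 and 18 (with a break), 14 and 10 (break in wild type), 4 and 2 (break in scc2-4), 2 and 3 (difference of break effects) and 3 and 25 (genotype, mean of both break states). All named calls stayed past the threshold with it. Among all 5434 genes the replicate block gave 1158 and 1097 (genotype, no break), 1208 and 1094 (genotype, break) and 591 and 528 (break in wild type). It gave 335 and 322 (break in scc2-4), 188 and 190 (difference) and 1546 and 1450 (mean of both states). Over 26 same-numbered pairs across break states r ran from −0.67 to 0.76 (median 0.32), and 16 were over 0.1. Over 13 such pairs within a break state it ran from −0.18 to 0.77 (median 0.3), and 9 were over 0.1. Over all same-numbered pairs the median was 0.31, against −0.16 for other pairs. With 1 array left out at a time, the counts ran from 0 to 2 and 12 to 16 (genotype, no break), 1 to 3 and 11 to 17 (genotype, break), 9 to 12 and 3 to 8 (break in wild type), 2 to 4 and 0 to 2 (break in scc2-4), 0 to 2 and 0 to 3 (difference of break effects) and 3 to 3 and 22 to 25 (mean of both states).

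An additive experiment term gave 19 and 3 for the genotype difference without a break, 16 and 4 with a break, 23 and 5 for the mean of both states, 3 and 0 for the break in wild type, and 0 and 0 for the break in scc2-4 and for the difference of break effects (5 each by limma at an unadjusted p under 0.05). The signs turned there without a break for CDC6 (0.14), CDC45 (0.24), RFC1 (0.35), POL12 (0.14) and PSF1 (0.18), and with a break for CDC45 (0.0575). This fit mixes in the genotype difference of experiment 2, which cannot be told apart from the array set. Among all genes it gave 2532 and 1062, 2340 and 1016, and 2867 and 1282 for the genotype differences. For the break in wild type it gave 68 and 35. Experiment 2 alone gave 35 and 3, 32 and 5, and 36 and 4 for the genotype differences without a break, with it and over both states, 10 and 3 for the break in wild type, 0 and 1 for the break in scc2-4 and 0 and 1 for the difference. Among all genes experiment 2 alone gave 3321 and 1292, 3197 and 1303, and 3408 and 1386 for the genotype differences. It gave 589 and 684 for the break in wild type, 249 and 317 in scc2-4 and 51 and 88 for the difference. Its signs were opposite without a break for MCM5 (0.14), CDC6 (0.52), CDC45 (0.64), RFC1 (0.82), POL12 (0.43), PSF1 (0.51) and DPB2 (0.0872), and with a break for CDC45 (0.46), POL12 (0.0089) and ORC6 (0.25). Experiment 1 alone gave 1 and 14 for the genotype difference with a break, 0 and 0 for the break in wild type (7 and 6 unadjusted), 1 and 0 in scc2-4 and 0 and 0 for the difference (2 and 1 unadjusted), from fewer arrays. The all-gene counts there were 915 and 787, 18 and 4, 19 and 17, and 5 and 6, in the same order.

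With array set as an additive term the counts were 2 and 13 (genotype, no break), 3 and 22 (genotype, break) and 0 and 0 (difference, 4 and 10 unadjusted). Centring each array on its median gave 0 and 16, 1 and 20, and 4 and 1 for the genotype differences and the break in scc2-4, beside 841 and 1055, 998 and 985, and 261 and 172 of all genes. Quantile normalization gave 2 and 17, 1 and 19, 3 and 1, and 1 and 2 for the difference, beside 974 and 962, 993 and 991, 221 and 176, and 103 and 110 of all genes. Array weights gave 3 and 20, 7 and 25, 11 and 7, and 1 and 5 for those comparisons and 6 and 25 for the mean of both states. Among all 5434 genes the weights gave 1505 and 1454, 1647 and 1427, 1153 and 959, and 376 and 340, and 1895 and 1718 for that mean. For the break in scc2-4 the reported fit called 221 and 185 of all genes, so the weights raised calls across the whole array. A trended, robust prior gave 0 and 14 without a break and 3 and 1 for the break in scc2-4, beside 969 and 925, and 250 and 183 of all genes. Leaving out dim genes gave 2 and 1 for the difference, beside 99 and 92 of the 4347 genes kept. The mean of probe sets gave the counts of the reported fit.

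After the data were seen, 2 alternatives were added. Counts with the array subset as a block follow the order of the first list. They were 2 and 19, 6 and 23, 13 and 10, 5 and 5, 4 and 7, and 6 and 25. All reported calls stayed past the threshold, but the p-values of this block rest on subsets found in the same values. For the break in wild type the block also raised the share of all genes called, in both directions. All-gene shares for the other comparisons are not given here, so larger counts under this block are not read as stronger support. Averaging close arrays gave 0 and 8, 1 and 5, 4 and 1, 0 and 0 (4 and 3 unadjusted), 0 and 0 (3 and 3 unadjusted), and 2 and 18, from 18 arrays. Among all genes averaging gave 540 and 485, 518 and 473, 148 and 94, 21 and 13, 16 and 11, and 995 and 887. Where no cause is given, the cause was not tested.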
